A study of Mus musculus with 14 samples.

Results

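Bone marrow cells that had kept a histone-GFP label through a long chase (GFP4) were compared with cells of the same surface phenotype that had diluted it to an intermediate level (GFP2). The arrays were chosen by their titles: 4 arrays of GFP4 and 3 of GFP2, which is 7 of the 14 arrays of the series. The other 7 arrays hold GFP0 (2 arrays), GFP1 (3 arrays) and GFP3 (2 arrays). Both groups were LSK cells, sorted by flow cytometry as lineage-negative, Sca1-positive and Kit-positive, a fraction of marrow with both hematopoietic stem cells (HSCs) and multipotent progenitors. All groups came from hCD34 x H2BGFP double transgenic mice on a C57BL/6 background. In these mice a human CD34 promoter drives a Tet-off transactivator, which in turn drives GFP fused to histone H2B. Doxycycline, which stops the labelling, was in the drinking water of every group (1 mg/ml) over a chase of 12 weeks that began at an age of 6 to 8 weeks. The labels put about 1 to 2 divisions between neighbouring GFP levels, so GFP4 and GFP2 lie 2 steps apart. The labels call the arrays biological replicates but do not say which animals gave each, and the RNA was amplified before labelling. The p-values therefore describe only how far these sorted samples scattered.

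A cell that divides shares its labelled histones between its daughters, so bright cells have divided rarely since labelling stopped. Adult HSCs are known as a mostly quiescent population: they rest outside the cell cycle and enter G1 through cyclin D with Cdk4 or Cdk6, then S phase through cyclin E with Cdk2. E2F transcription factors switch on the genes of G1 and S phase, and a separate set of genes is switched on later for G2 and mitosis. Progenitors further along cycle more often and take up surface proteins such as Cd48, which the most primitive HSCs lack.

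All values are log2 expression of Affymetrix probe sets as the authors deposited them, 1 probe set per gene, and differences are log2 differences, GFP4 minus GFP2. Pairs of arrays correlated with r between 0.928 and 0.981 within GFP4, between 0.972 and 0.987 within GFP2, and between 0.933 and 0.978 across the groups, over 18194 genes. GFP4 replicates 1 and 2 each stood apart in some measures. Replicate 1 had a mean of 9.72 over the immediate early and heat shock genes, against 8.81 to 9.05 in the other GFP4 arrays, and the lowest array weight of all 14, 0.302. Replicate 2 read 12.38 for Dntt and 9.77 for Cpa3, while the other GFP4 arrays lay between 9.90 and 10.22 and between 6.38 and 6.67. RNA quality was read from Actb as its 3 prime minus its 5 prime log2 expression, which averaged 4.64 ± 0.46 in GFP4 (SD, n = 4) and 3.71 ± 0.19 in GFP2 (SD, n = 3). Its ranges, 3.99 to 5.05 in GFP4 and 3.57 to 3.93 in GFP2, did not overlap, with an exact two-sided permutation p of 0.0571, the smallest that the 35 splits of 7 arrays can give. The same measure for Gapdh was 5.80 ± 0.54 in GFP4 (SD, n = 4) and 5.63 ± 0.19 in GFP2 (SD, n = 3) (exact permutation p = 0.857). The Actb measure thus moved with the groups, and its part in the results was not tested beyond the fits with it as a covariate given below. The small number of arrays limits the precision. Kit was measured at 8.70 to 9.50 in GFP4 and 8.67 to 9.91 in GFP2. Of the lineage markers, Itgam lay between 5.06 and 5.54 in GFP4 and between 5.13 and 5.40 in GFP2, and Cd3e between 7.12 and 7.63 in GFP4 and between 7.10 and 7.46 in GFP2. Cd4 lay between 8.39 and 8.57 in GFP4 and between 8.08 and 8.47 in GFP2, and Cd8a between 7.23 and 8.22 in GFP4 and between 6.99 and 7.54 in GFP2; with no detection calls used here, these values do not show whether the genes were expressed.

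Setting GFP4 against GFP2 asks which genes differ between LSK cells that kept the label and LSK cells that had diluted it further. Among the genes lower in GFP4 were 5 of DNA synthesis (Cdt1, Tk1, Lig1, Rrm1 and Rfc5) and the G1 regulators Ccne2 and Cdk6. The imprinted noncoding RNA Meg3 showed the largest rise among the genes past the threshold. In limma's moderated test over all 14 arrays, with Benjamini-Hochberg adjustment over 18194 genes and a threshold of 0.05, 21 genes differed (0.115% of those tested). Of these, 6 were higher in GFP4 (0.033%) and 15 were lower (0.0824%), and their largest adjusted p was 0.0489. The balance depended on the scaling: cyclic loess gave 14 higher and 9 lower, and centring the arrays on their medians left 1 higher and 1 lower. At an unadjusted p under 0.05 there were 956 genes higher (5.25%) and 1442 lower (7.93%). The arrays of the groups did not overlap for 1518 genes that were higher in GFP4 (8.34%) and 1334 that were lower (7.33%). Over all genes the median difference was 0.07, the quartiles were -0.21 and 0.26, and 638 genes differed by more than 1 in either direction.

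The number of genes past the threshold depended on single arrays. Without GFP4 replicate 2 it was 122, of which 21 were the genes called above, and without GFP4 replicate 3 it was 40. Without GFP4 replicate 1 it was 1, and without GFP2 replicate 3 it was 4. It was 0 without GFP4 replicate 4, GFP2 replicate 1 or GFP2 replicate 2, where limma still gave 2328, 2175 and 1490 genes at an unadjusted p under 0.05. Arrays of other levels, which enter through the shared estimate of spread, moved it too: it was 68, 102 and 5 without GFP1 replicates 1, 2 and 3, and 7 without either GFP3 array. With the Actb measure as a covariate, which was added after seeing the data, limma called 0 genes and gave 827 at an unadjusted p under 0.05. For each of the 21 genes the difference kept its direction in every alternative setting tried that gave it a single value.

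**Figure D1:**
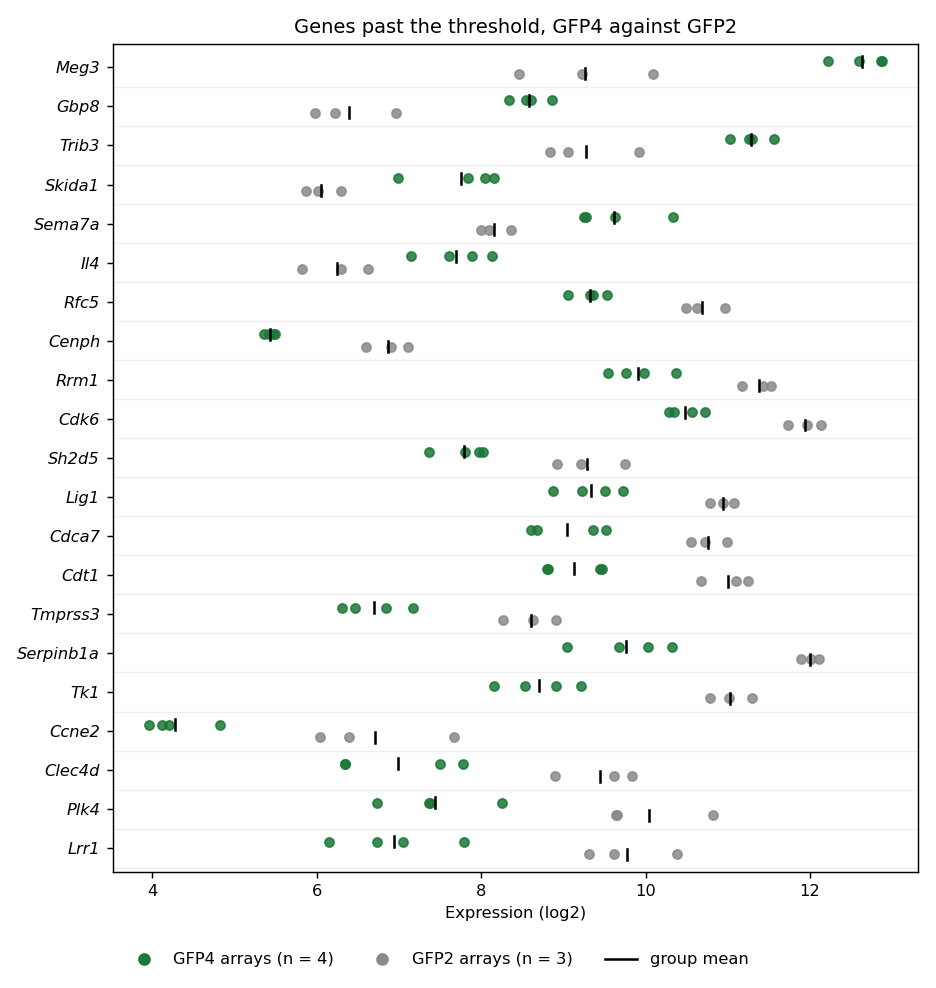
Log2 expression (horizontal axis) of the 21 genes past the threshold, one row per gene, with a green point for each of the 4 GFP4 arrays above a grey point for each of the 3 GFP2 arrays and a black bar at each group mean. In none of the rows do the green and grey points overlap, and the 6 genes higher in GFP4 fill the top rows.

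The genes of DNA synthesis are taken first. Cdt1, which loads the MCM helicase at replication origins, read 9.48, 8.81, 9.45 and 8.80 in the GFP4 arrays, against 11.10, 11.25 and 10.67 in the GFP2 arrays. All GFP4 arrays lay below all GFP2 arrays, and Cdt1 fell by 1.87 ± 0.22 (SE, adjusted p = 0.0162). One of its 2 other probe sets differed by 0.12 in the opposite direction and the other by -1.41.

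Tk1, the thymidine kinase that salvages thymidine for DNA synthesis, had values of 8.54, 8.92, 9.22 and 8.16 in GFP4, against 11.01, 11.29 and 10.78 in GFP2. Its drop of 2.32 ± 0.35 (SE, adjusted p = 0.0409) separated the groups without overlap. Lig1, the ligase that joins Okazaki fragments, stood at 9.50, 8.88, 9.73 and 9.23 in GFP4 and at 11.08, 10.95 and 10.79 in GFP2, and it decreased by 1.60 ± 0.26 (SE, adjusted p = 0.0421). Rrm1, the large subunit of ribonucleotide reductase, which makes deoxynucleotides, gave 9.54, 10.37, 9.99 and 9.76 in GFP4 and 11.53, 11.42 and 11.17 in GFP2. Again no array of one group reached the other, with a fall of 1.46 ± 0.25 (SE, adjusted p = 0.0489); both other probe sets of Rrm1 went the same way, by -0.59 and -0.10. Rfc5, a subunit of the loader that places the PCNA clamp on DNA, fell by 1.37 ± 0.23 (SE, adjusted p = 0.0489), with 9.06 to 9.54 in GFP4 and 10.49 to 10.96 in GFP2.

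Regulators of G1 and of the centrosome and centromere were also among the genes that fell. Cdk6, the cyclin D-dependent kinase that controls how fast HSCs leave quiescence, read 10.73, 10.57, 10.35 and 10.28 in GFP4, against 11.74, 11.96 and 12.14 in GFP2. The groups lay about a log2 unit apart at their nearest arrays, and the difference was -1.46 ± 0.20 (SE, adjusted p = 0.0325). A second Cdk6 probe set differed by -1.68 and the other by 0.15. Ccne2, cyclin E2, the partner of Cdk2 at the start of S phase, fell by 2.42 ± 0.36 (SE, adjusted p = 0.0409), but it was dim: 3.97 to 4.83 in GFP4 and 6.05 to 7.67 in GFP2, around or under the median of the table, 7.03. Plk4, the kinase that starts centriole duplication, had 6.74, 7.37, 8.26 and 7.38 in GFP4, against 9.65, 10.82 and 9.66 in GFP2, a fall of 2.60 ± 0.42 (SE, adjusted p = 0.0411). Its 2 other probe sets differed by -1.68 and -1.13. Cenph, a kinetochore protein, fell by 1.43 ± 0.23 (SE, adjusted p = 0.0411) and was dim as well, with 5.36 to 5.49 in GFP4 and 6.60 to 7.11 in GFP2. Lrr1, the substrate receptor of a cullin-based ubiquitin ligase, had the largest difference of group means among the genes that fell, -2.84 ± 0.45 (SE, adjusted p = 0.0411). It read 6.74, 7.80, 7.05 and 6.16 in GFP4 and 9.62, 10.38 and 9.31 in GFP2. Its 2 other probe sets differed by -1.94 and -0.42. Cdca7, a Myc target named for its periodic expression in the cell cycle, fell by 1.71 ± 0.27 (SE, adjusted p = 0.0411), with 8.61 to 9.52 in GFP4 and 10.56 to 10.99 in GFP2. Its other probe set differed by -0.71.

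The remaining 4 genes that fell are known for other roles or little described. Serpinb1a, an inhibitor of neutrophil serine proteases, read 10.03, 9.68, 10.32 and 9.04 in GFP4, against 11.89, 12.11 and 12.01 in GFP2, a fall of 2.24 ± 0.34 (SE, adjusted p = 0.0409). Its other probe set differed by -1.45. Clec4d, a C-type lectin receptor of myeloid cells, fell by 2.46 ± 0.40 (SE, adjusted p = 0.0421), with 6.35 to 7.78 in GFP4 and 8.90 to 9.84 in GFP2. Tmprss3, a transmembrane serine protease, and Sh2d5, an adaptor with an SH2 domain, fell by 1.90 ± 0.32 (SE, adjusted p = 0.0489) and by 1.5 ± 0.25 (SE, adjusted p = 0.0421). Both stood without overlap between the groups. The other Sh2d5 probe set differed by -1.28.

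Meg3, a maternally expressed noncoding RNA of the imprinted Dlk1 to Dio3 region, which is active in HSCs, read 12.60, 12.86, 12.22 and 12.87 in GFP4, against 9.22, 8.46 and 10.09 in GFP2. The lowest GFP4 array lay above the highest GFP2 array, and the difference was 3.38 ± 0.42 (SE, adjusted p = 0.0162). The probe set used for Meg3 can cross-hybridise by its name (ending in _x_at); of its 10 other probe sets 9 differed in the same direction, 2 of them past the threshold when each probe set was tested by itself, and 1 differed by -0.17. Gbp8, of the interferon-induced guanylate-binding proteins, stood at 8.34, 8.86, 8.54 and 8.60 in GFP4 and at 5.98, 6.23 and 6.97 in GFP2, a rise of 2.20 ± 0.28 (SE, adjusted p = 0.0162). Trib3, a pseudokinase induced by stress, gave 11.30, 11.26, 11.02 and 11.56 in GFP4 and 8.84, 9.05 and 9.93 in GFP2, a rise of 2.01 ± 0.31 (SE, adjusted p = 0.0411), also on a probe set that can cross-hybridise. Its other probe set differed by 0.92 and did not pass when tested by itself. Meg3, Gbp8 and Trib3 were all separated between the groups, with the GFP2 arrays more scattered than the GFP4 arrays.

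Smaller rises were measured for Skida1, by 1.70 ± 0.27 (SE, adjusted p = 0.0411), and for Sema7a, a membrane-anchored semaphorin, by 1.47 ± 0.25 (SE, adjusted p = 0.0489). Their other probe sets differed by 0.12 and 0.16. Il4, a cytokine known from T cells, basophils and mast cells, read 8.13, 7.15, 7.88 and 7.61 in GFP4, against 5.83, 6.30 and 6.63 in GFP2, a rise of 1.44 ± 0.23 (SE, adjusted p = 0.0411). Its GFP2 arrays, like those of Gbp8, lay under the median of the table, 7.03. The 12 measured mast cell and basophil genes had a median difference of -0.27, and none of them passed the test. Over the alternatives this median ran from -0.53 to 0.38. The part of such cells in the Il4 values was not tested.

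Just short of the threshold, Cish, a STAT5-induced inhibitor of cytokine signalling, differed by 1.23 ± 0.22 (SE, adjusted p = 0.055), with 10.98 to 11.73 in GFP4 and 9.83 to 10.42 in GFP2.

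The genes of S phase were surveyed as a list of 31 measured members. Of these 4 fell (Cdt1, Tk1, Lig1 and Rrm1), none rose, and 27 did not pass, while 0.0824% of all genes tested fell. At an unadjusted p under 0.05 there were 23 members lower in GFP4 (7.93% of all genes) and none higher, and 15 members were lower without overlap of the arrays (7.33% of all genes). The same shares over all genes, with 5.25% higher at an unadjusted p under 0.05, stand beside the counts of the lists that follow. The median difference was -1.0, against 0.07 over all genes. Mean expression of the list was 9.25, 9.71, 9.71 and 8.94 in the GFP4 arrays and 10.47, 10.76 and 10.33 in the GFP2 arrays, so every GFP4 array lay below every GFP2 array. Dscc1, which helps join sister chromatids during replication, differed by -2.45 ± 0.53 (SE, adjusted p = 0.0773). Tipin, of the complex that protects replication forks, differed by -2.05 ± 0.41 (SE, adjusted p = 0.0723). Rrm2, the small subunit of ribonucleotide reductase, differed by -1.89 ± 0.42 (SE, adjusted p = 0.0856), and Gins1, of the replicative helicase, by -1.60 ± 0.31 (SE, adjusted p = 0.0672). None of these 4 passed, though their groups did not overlap. With the Actb measure as a covariate the S phase median was -0.74 and 12 members had an unadjusted p under 0.05, against 2.86% of all genes lower at that level.

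The G2 and M phase list, of 32 measured members, had the lowest median of all lists, -1.63, yet no member passed the test; limma gave 28 members lower (7.93% of all genes) and none higher at an unadjusted p under 0.05. For 24 members the GFP4 arrays lay wholly below those of GFP2 (7.33% of all genes). Mean expression of the list was 7.90, 9.46, 9.12 and 8.54 in GFP4 and 10.24, 10.38 and 10.05 in GFP2: the GFP4 arrays spread over more than a log2 unit and lay below all of GFP2. Mad2l1, of the spindle checkpoint, read 8.08, 8.90, 9.41 and 9.02 in GFP4 and 10.26, 10.86 and 10.41 in GFP2, a difference of -1.66 ± 0.29 (SE, adjusted p = 0.0525). Mki67, the proliferation antigen Ki-67, stood at 8.40, 11.39, 11.02 and 10.30 in GFP4 and at 12.06, 11.92 and 11.80 in GFP2, a difference of -1.64 ± 0.53 (SE, adjusted p = 0.219). GFP4 replicate 1 was the lowest of the 4 in both. Nusap1, which bundles spindle microtubules, differed by -2.0 ± 0.40 (SE, adjusted p = 0.0723), the mitotic kinase Aurka by -1.72 ± 0.36 (SE, adjusted p = 0.0735), and the kinetochore protein Nuf2 by -1.75 ± 0.37 (SE, adjusted p = 0.0749). Without GFP4 replicate 2, 11 of the 32 members passed, where 122 of all 18194 genes did, and the median was -1.79. That array was singled out after its values were seen, so this count is no independent support. Without GFP4 replicate 1 the median was -1.17 and none passed. With the Actb measure as a covariate the median was -1.08, with 17 members lower at an unadjusted p under 0.05 (2.86% of all genes).

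DNA repair genes, 21 measured, all had a difference below 0, with a median of -0.77. None passed; at an unadjusted p under 0.05 there were 14 lower and none higher in limma, and the arrays did not overlap for 13. Rad54l, a recombination motor, differed by -1.87 ± 0.38 (SE, adjusted p = 0.0728), and Fancd2, of the pathway that repairs crosslinks, by -0.96 ± 0.20 (SE, adjusted p = 0.0773). Other Fancd2 probe sets differed by 0.08, -0.20 and 0.38. Brca2, a gene of homologous recombination, was 9.69, 8.60, 9.72 and 9.69 in GFP4 and 10.67, 10.58 and 10.54 in GFP2 (difference -1.17 ± 0.31, SE, adjusted p = 0.138), with replicate 2 the lowest of GFP4.

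**Figure D2:**
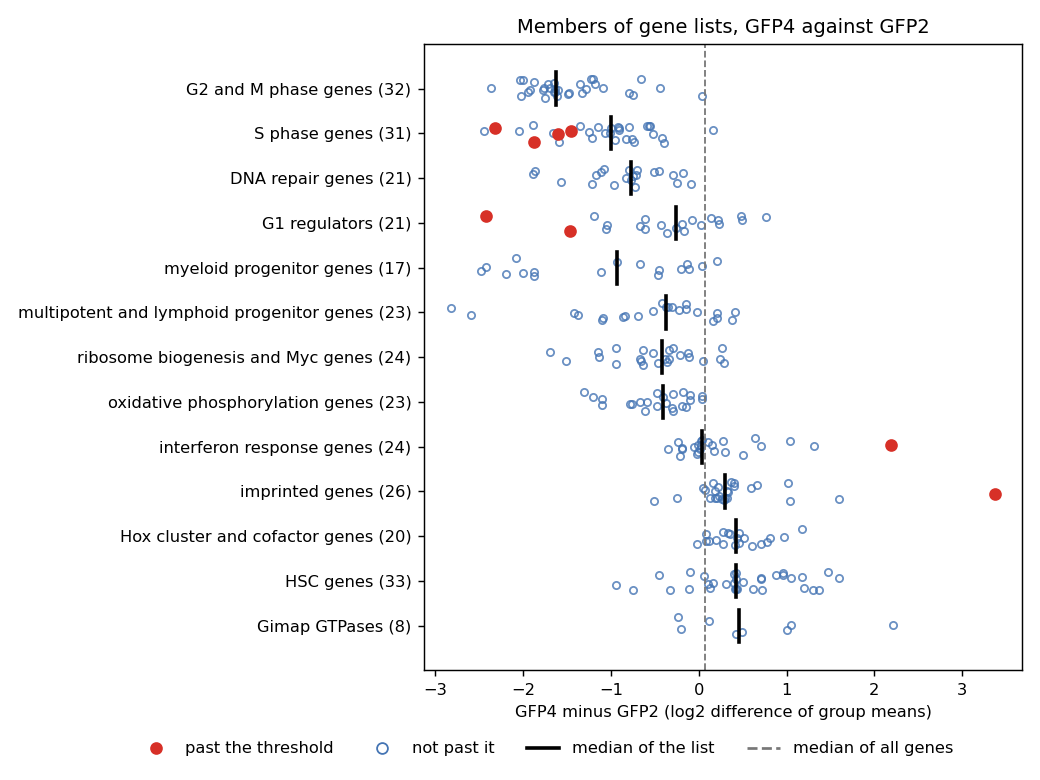
Log2 difference of group means, GFP4 minus GFP2 (horizontal axis), for each measured member of 13 gene lists, 1 list per row with its number of members; filled red points passed the threshold, open blue points did not, the black bar is the list's median and the dashed line the median of all genes (0.07). The medians of G2 and M phase (-1.63) and S phase (-1.0) lie farthest to the left, and that of the Gimap GTPases (0.46) farthest to the right.

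The promoters of these lists were read for short motifs, chosen after the expression values were seen, to show the sequence that the S phase and the G2 and M phase genes carry near their start sites. Promoters ran from 250 bases before to 50 after each start site (RefSeq, GRCm38.p6) and were searched on both strands. For E2F the letters were TTTCCCGC, TTTCGCGC, TTTGCCGC and TTTGGCGC. At least 1 of them stood in the promoters of 11 of the 25 S phase genes with a promoter in the table (44.0%), of 1 of 27 G2 and M phase genes (3.70%), and of 704 of all 27025 genes (2.60%). For the CHR element, a sequence known from genes of mitosis, the letters were TTTGAA: 20 of 27 G2 and M phase genes held it (74.1%), 3 of 25 S phase genes (12.0%) and 20.2% of all genes. Of the 15 genes that fell, 12 had a promoter in the table and 3 of these (25%) held an E2F match, namely Cdt1, Lig1 and Cdca7. The CHR letters stood in 2 of these 12 (16.7%, against 20.2% of all genes). The letters CCAAT were searched as well and stood in 3 of the 12 (25%, against 41.1% of all genes). CCAAT was held by 64.0% of the S phase and 81.5% of the G2 and M phase genes. A match is a description of these letters and does not show a bound site. The windows of 30 bases below are given 5′ to 3′ on the gene's strand with the match in capitals: first the E2F matches of the 3 genes that fell, on the strand of the gene for Cdt1 and on the opposite strand for Lig1 and Cdca7, then CHR matches of 4 mitotic genes.
Cdt1, chr8:122568035-122568064, plus strand: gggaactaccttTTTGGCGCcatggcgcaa
Lig1, chr7:13278841-13278870, plus strand: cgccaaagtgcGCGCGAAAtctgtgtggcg
Cdca7, chr2:72476137-72476166, plus strand: tgcgtcccggcGCGGGAAAgccggtggccc
Aurka, chr2:172370521-172370550, minus strand: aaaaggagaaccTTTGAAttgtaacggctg
Ccnb2, chr9:70421533-70421562, minus strand: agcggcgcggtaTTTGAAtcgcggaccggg
Cdk1, chr10:69352910-69352939, minus strand: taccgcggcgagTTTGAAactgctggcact
Top2a, chr11:99024351-99024380, minus strand: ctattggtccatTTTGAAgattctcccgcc

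Beside Cdk6 and Ccne2, the 19 other measured G1 regulators did not pass, and the list's median was -0.26. Cdk4, the other cyclin D-dependent kinase, read 9.93, 10.22, 10.44 and 10.16 in GFP4, against 11.25, 11.35 and 11.53 in GFP2, a difference of -1.19 ± 0.23 (SE, adjusted p = 0.0622). E2f8, a repressor among the E2F factors, differed by -1.05 ± 0.30 (SE, adjusted p = 0.177), and Rbl1, the retinoblastoma relative p107, by -1.06 ± 0.46 (SE, adjusted p = 0.349). Cyclin D2 did not pass either: Ccnd2, on a probe set that can cross-hybridise, stood at 12.48, 11.59, 12.44 and 12.04 in GFP4 and at 10.94, 11.38 and 11.81 in GFP2, overlapping, with a difference of 0.76 ± 0.30 (SE, adjusted p = 0.297). Its other probe sets differed by -0.50 to 0.69.

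None of the 7 CDK inhibitors passed, with 2 higher and 1 lower at an unadjusted p under 0.05 in limma. Cdkn1c (p57), the inhibitor known to hold HSCs in quiescence, read 9.21, 9.35, 10.40 and 10.20 in GFP4, against 8.81, 8.56 and 8.97 in GFP2. The groups did not overlap, but the difference of 1.01 ± 0.32 did not pass (SE, adjusted p = 0.211). Cdkn2c (p18) differed by -0.91 ± 0.39 (SE, adjusted p = 0.344) and Cdkn1a (p21) by -0.19 ± 0.21 (SE, adjusted p = 0.659).

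Genes of HSCs lay higher in GFP4 as a list, without any of the 33 measured members passing. At an unadjusted p under 0.05 limma gave 13 higher and 2 lower, and the median was 0.43, against 0.07 over all genes. Of the differences 27 were above 0 and 6 below, from -0.95 for Vldlr to 1.60 for Ndn. The members given below were chosen by small p or by name and do not stand for the whole list. Mean expression of the list was 9.71, 9.63, 9.77 and 9.96 in GFP4 and 8.95, 9.28 and 9.59 in GFP2: the lowest GFP4 array was just above the highest GFP2 array. Ndn, an imprinted growth suppressor, read 11.29, 11.73, 12.03 and 11.98 in GFP4, against 9.85, 10.24 and 10.38 in GFP2, a difference of 1.60 ± 0.28 (SE, adjusted p = 0.0513). Pdzk1ip1, a small membrane protein, stood at 13.47, 12.99, 13.29 and 13.50 in GFP4 and at 11.85, 11.73 and 12.44 in GFP2, a difference of 1.30 ± 0.24 (SE, adjusted p = 0.0592). Sult1a1, a sulfotransferase, differed by 1.47 ± 0.30 (SE, adjusted p = 0.0726). Mllt3, a chromatin reader that maintains human HSCs in culture, had 10.25, 11.08, 10.45 and 10.99 in GFP4 and 9.17, 9.27 and 9.52 in GFP2, a difference of 1.37 ± 0.28 (SE, adjusted p = 0.0732). These 4 genes all had groups that did not overlap.

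Among surface markers that HSCs carry, Procr, the protein C receptor EPCR, read 11.54, 11.21, 10.86 and 11.37 in GFP4 and 10.02, 9.65 and 10.90 in GFP2, where GFP2 replicate 3 overlapped GFP4 (difference 1.05 ± 0.44, SE, adjusted p = 0.335). Slamf1, the HSC marker CD150, was 8.28, 8.12, 8.37 and 8.43 in GFP4 and 7.56, 8.01 and 8.08 in GFP2, a difference of 0.42 ± 0.17 (SE, adjusted p = 0.326). Vwf, the von Willebrand factor that marks platelet-biased HSCs, overlapped between the groups, with 7.07 to 9.29 in GFP4 and 7.65 to 8.00 in GFP2 (difference 0.71 ± 0.67, SE, adjusted p = 0.616). Kit, the receptor of stem cell factor, by which all cells were sorted, differed by -0.25 ± 0.35 (SE, adjusted p = 0.733). In these bulk samples fewer cells of a type and less RNA per cell cannot be told apart. With the Actb and Gapdh measures as covariates the HSC median was 0.15, the lowest of the alternatives, and with that of Actb alone it was 0.23.

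Of the 23 multipotent and lymphoid progenitor genes none passed and 8 were lower at an unadjusted p under 0.05 in limma, with none higher. The median was -0.37, and mean expression was 8.54, 8.70, 8.61 and 8.66 in GFP4, below 9.27, 9.14 and 9.29 in GFP2. Cd48, the marker that HSCs lack, read 5.31, 8.42, 7.07 and 5.93 in GFP4, against 9.68, 9.60 and 9.23 in GFP2. The groups did not overlap, but the GFP4 arrays spread over more than 3 log2 units, and the difference of -2.82 ± 0.58 did not pass (SE, adjusted p = 0.0732). Dntt, the terminal transferase of lymphoid-primed progenitors, had 9.90, 12.38, 10.22 and 10.21 in GFP4 and 13.46, 13.08 and 13.27 in GFP2, a difference of -2.59 ± 0.45 (SE, adjusted p = 0.0513). In both genes replicate 2 was the highest GFP4 array. Without it Cd48 differed by -3.40 (adjusted p = 0.00956) and Dntt by -3.16 (adjusted p = 1.92e-05), and both then passed in limma. That array was singled out by its Dntt value, so these p-values are no independent support. With the Actb measure as a covariate Cd48 differed by -1.94 (adjusted p = 0.930) and Dntt by -2.64 (adjusted p = 0.697). Cd34, the surface sialomucin of progenitors, stood at 9.73, 10.69, 10.04 and 10.13 in GFP4 and at 11.41, 11.28 and 12.01 in GFP2, a difference of -1.42 ± 0.34 (SE, adjusted p = 0.106). Flt3, the receptor tyrosine kinase of multipotent progenitors, overlapped, with a difference of -0.35 ± 0.30 (SE, adjusted p = 0.585).

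The 17 myeloid progenitor genes had a median of -0.94, and none passed, with 4 lower and none higher at an unadjusted p under 0.05 in limma. Mean expression of the list was 8.65, 11.24, 9.17 and 8.90 in GFP4 and 11.68, 10.55 and 9.54 in GFP2, so GFP4 replicate 2 lay within the GFP2 range. Mpo, myeloperoxidase, varied widely: 7.88, 13.29, 9.67 and 9.12 in GFP4 and 13.83, 12.51 and 9.89 in GFP2 (difference -2.09 ± 1.17, SE, adjusted p = 0.45). Plac8 differed by -1.87 ± 0.44 (SE, adjusted p = 0.106) and by -2.43 without GFP4 replicate 2 (adjusted p = 9.40e-05). Nkg7, a granule membrane protein, differed by -2.49 ± 0.69 (SE, adjusted p = 0.162) and by -3.24 without that array (adjusted p = 0.0113). GFP4 replicate 2 was singled out after its values were seen, so the p-values without it are no independent support. With the Actb measure as a covariate Plac8 differed by -1.63 and Nkg7 by -1.69 (adjusted p = 0.930 for both).

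**Figure D3:**
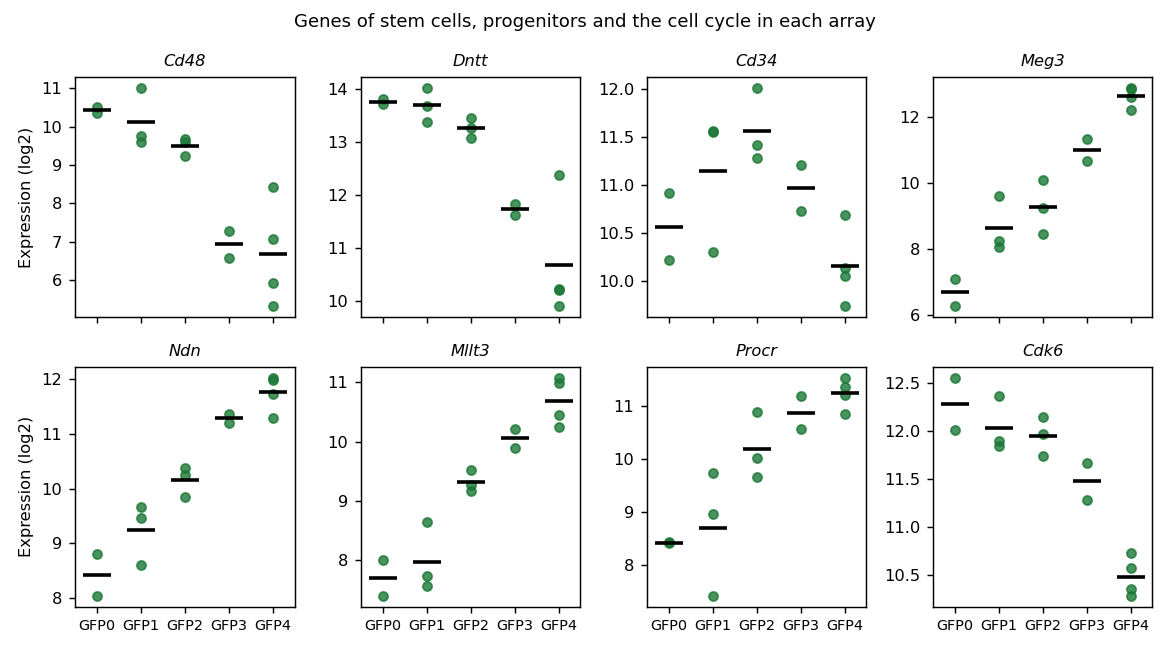
Log2 expression (vertical axis, a scale of its own in each panel) of Cd48, Dntt, Cd34, Meg3, Ndn, Mllt3, Procr and Cdk6 in every array, by GFP level from GFP0 to GFP4; points are arrays and black bars group means. In Cd48 and Dntt the highest GFP4 point, replicate 2 (8.42 and 12.38), stands above the other GFP4 arrays, and the GFP4 and GFP2 points overlap in Procr but not in the other 7 genes.

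Among 26 imprinted genes 1 rose, Meg3, and 25 did not pass. At an unadjusted p under 0.05 there were 7 higher and none lower, 24 differences were above 0, and the median was 0.30. Mean expression was 8.04, 7.78, 7.97 and 8.01 in GFP4 and 7.44, 7.53 and 7.51 in GFP2, without overlap. Ndn and Cdkn1c, described above, belong to this list too. Dlk1, a paternally expressed neighbour of Meg3 and a secreted Notch-like ligand, differed by 0.67 ± 0.22 (SE, adjusted p = 0.229), with 7.09 to 7.91 in GFP4 and 6.43 to 7.0 in GFP2. Another Dlk1 probe set differed by -0.10.

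Of 24 interferon response genes Gbp8 rose and 23 did not pass, and the list's median of 0.03 was close to that of all genes. Over the alternatives this median ran from -0.02 to 0.28. At an unadjusted p under 0.05 limma gave 4 members higher (5.25% of all genes) and none lower. The arrays did not overlap for 3 members that were higher (8.34% of all genes). Ifit1, an interferon-induced antiviral protein, read 9.81, 10.00, 9.68 and 9.73 in GFP4, against 8.52, 8.87 and 8.92 in GFP2 (difference 1.04 ± 0.26, SE, adjusted p = 0.125), and Gbp6 differed by 1.31 ± 0.37 (SE, adjusted p = 0.173). The 8 Gimap GTPases, which support the survival of lymphocytes, had a median of 0.46; none passed and 4 were higher at an unadjusted p under 0.05 in limma. Gimap4 stood at 7.72, 8.11, 9.43 and 8.49 in GFP4 and at 5.80, 6.66 and 6.20 in GFP2, a difference of 2.21 ± 0.57 (SE, adjusted p = 0.13). Its other probe set differed by 0.65. Gimap5 and Gimap8 differed by 1.05 ± 0.33 (SE, adjusted p = 0.211) and 1.00 ± 0.35 (SE, adjusted p = 0.252). Homeobox genes of the Hox clusters and their cofactors, 20 measured, had a median of 0.42, with 3 higher and none lower at an unadjusted p under 0.05 in limma and none past the threshold. Hoxb5, which marks long-term HSCs, was 7.48 to 8.39 in GFP4 and 5.92 to 7.64 in GFP2, overlapping (difference 1.18 ± 0.35, SE, adjusted p = 0.187).

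Genes of growth had medians below 0 and no member past the threshold. Ribosome biogenesis and Myc genes, 24 measured, had a median of -0.42 with 7 lower and none higher at an unadjusted p under 0.05 in limma. Ncl, nucleolin, read 10.28, 11.27, 10.40 and 9.81 in GFP4, against 12.38, 11.63 and 12.38 in GFP2, a difference of -1.70 ± 0.48 (SE, adjusted p = 0.173). Oxidative phosphorylation genes, 23 measured, had a median of -0.41 with 7 lower and none higher at the same level in limma. Ndufa9, a subunit of respiratory complex I, stood at 10.41, 10.25, 10.89 and 10.35 in GFP4 and at 11.79, 11.47 and 11.48 in GFP2, a difference of -1.10 ± 0.22 (SE, adjusted p = 0.0714). With array measures as covariates the median of the oxidative phosphorylation list came as near to 0 as -0.04 among the alternatives. Among 24 chromatin and DNA methylation genes, none past the threshold, 6 were lower and 1 higher at an unadjusted p under 0.05 in limma. Ezh2, the methyltransferase of Polycomb complex PRC2, differed by -1.18 ± 0.31 (SE, adjusted p = 0.132) and Hmgb2, a chromatin protein abundant in dividing cells, by -1.24 ± 0.25 (SE, adjusted p = 0.0673). Dnmt3a, a DNA methyltransferase that limits HSC self-renewal, was 10.02, 10.63, 9.31 and 10.07 in GFP4 and 8.63, 9.01 and 9.38 in GFP2, overlapping (difference 1.00 ± 0.30, SE, adjusted p = 0.187). Other Dnmt3a probe sets differed by 0.29, -0.25, 0.59 and -0.46.

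Markers of other cell types were set beside these results. Mean expression of 20 neutrophil, monocyte and macrophage genes was 7.25, 8.23, 7.65 and 7.0 in GFP4 and 8.65, 7.81 and 6.94 in GFP2, of 12 mast cell and basophil genes 7.33, 8.18, 7.28 and 7.13 in GFP4 and 8.34, 7.77 and 7.14 in GFP2, and both overlapped. The first of these lists holds Clec4d, its only member past the threshold. B and plasma cell genes, 14 measured, lay between 7.51 and 8.05 in GFP4 and between 7.52 and 8.31 in GFP2, though Ighm, the immunoglobulin heavy chain, read 13.41 in GFP4 replicate 2 and 9.29 to 10.16 in the other GFP4 arrays, against 11.75 to 13.43 in GFP2. T and NK cell genes, 14 measured, lay between 7.03 and 7.54 in GFP4 and between 7.15 and 7.49 in GFP2. Megakaryocyte and platelet genes, 15 measured, lay between 8.09 and 8.30 in GFP4 and between 8.25 and 8.54 in GFP2. Of 17 endothelial and stromal genes 4 were higher and 1 lower at an unadjusted p under 0.05, none past the threshold in limma. Their mean lay between 7.05 and 7.41 in GFP4 and between 6.95 and 7.07 in GFP2, overlapping. The median difference was 0.23, with 14 members above 0 and 3 below. Cdh5, which defines endothelium, lay between 5.82 and 6.11 in GFP4 and between 5.74 and 5.84 in GFP2. The part of such cells in the results was not tested.

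The levels outside the pair were read for the same genes and lists. For all 21 genes past the threshold the mean of GFP3 lay between those of GFP2 and GFP4, at a median of 42.5% of the way from GFP2 to GFP4. For 11 of them the mean of GFP0 lay on the far side of GFP2 from GFP4, as for Meg3 (means of 6.68 in GFP0, 9.26 in GFP2 and 12.64 in GFP4) and Cdk6 (12.28 in GFP0, 11.95 in GFP2 and 10.48 in GFP4). For the other 10 it did not, as for Tk1 (10.34 in GFP0, 11.03 in GFP2 and 8.71 in GFP4). The 21 genes were chosen for a large difference between GFP4 and GFP2, so a GFP3 mean between them follows in part from that choice. The same counts were not taken over all genes, so these positions are description only. Mean expression of the S phase list was 10.55, 10.52, 10.52, 10.08 and 9.40 from GFP0 to GFP4, and that of the G2 and M phase list 9.57, 10.10, 10.22, 9.59 and 8.76. The S phase means thus lay close together over the 3 lowest levels, and the G2 and M phase mean was highest in GFP2. The HSC list went 8.52, 8.81, 9.28, 9.80 and 9.77 from GFP0 to GFP4, and its GFP3 and GFP4 arrays overlapped.

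**Figure D4:**
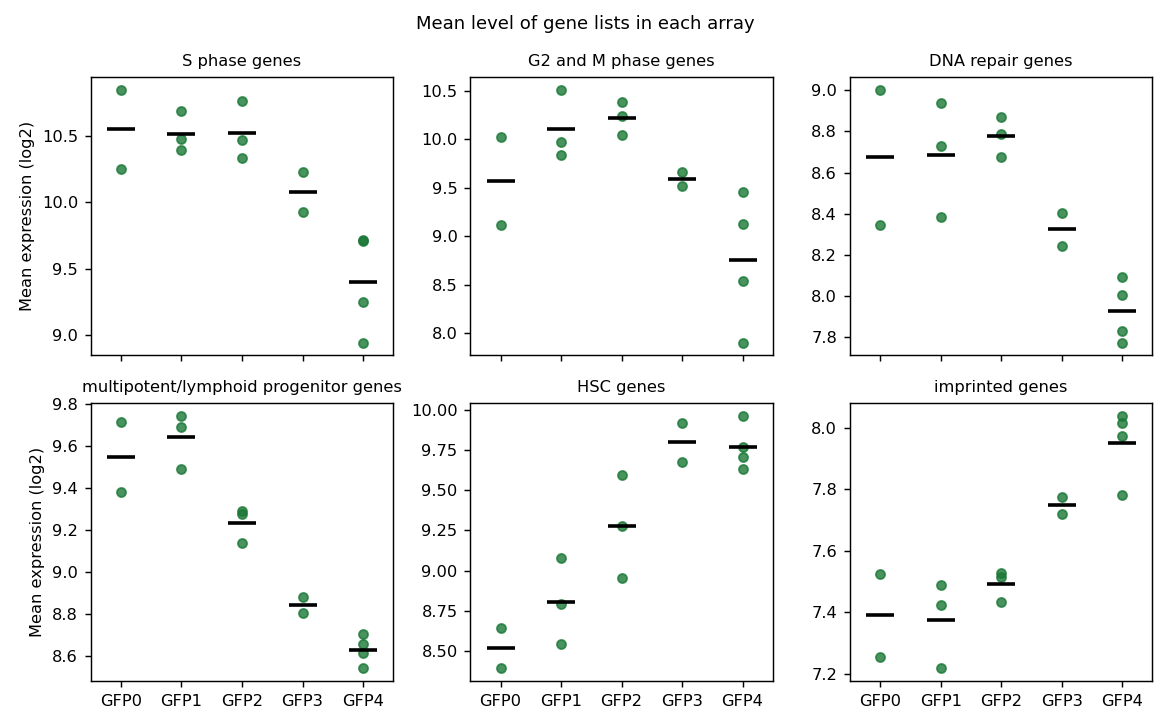
Mean log2 expression (vertical axis, a scale of its own in each panel) of 6 gene lists in every array, by GFP level from GFP0 to GFP4; points are arrays and black bars group means. S phase genes lie at 10.55 to 10.52 from GFP0 to GFP2 and at 9.40 in GFP4, whereas HSC genes lie at 8.52 in GFP0, 9.80 in GFP3 and 9.77 in GFP4.

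Whether the step to GFP4 differed from the step before it was tested as the change from GFP2 to GFP4 minus the change from GFP0 to GFP2. Both changes share the GFP2 arrays, and no gene passed in limma (smallest adjusted p = 0.308), with 2773 genes at an unadjusted p under 0.05 (15.2%). Single arrays moved that number: it was 1016 and 5705 without GFP0 replicates 1 and 2, and 1702 and 891 without GFP2 replicates 2 and 3. The change from GFP0 to GFP2 itself had no gene past the threshold in limma (2950 at an unadjusted p under 0.05). The median change of the G2 and M phase genes was 0.63 from GFP0 to GFP2 and -1.63 from GFP2 to GFP4, and that of the S phase genes -0.20 and -1.0. The genes with the smallest p were Lims1, a focal adhesion protein, Golga5, of the Golgi, Ddx19b, an RNA helicase of mRNA export, and H2-Aa, an MHC class II chain. Lims1 had means of 10.55 in GFP0, 12.04 in GFP2 and 10.52 in GFP4, and H2-Aa had 13.45 in GFP0, 12.49 in GFP2 and 13.38 in GFP4; both were chosen for this pattern and neither passed.

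**Figure D5:**
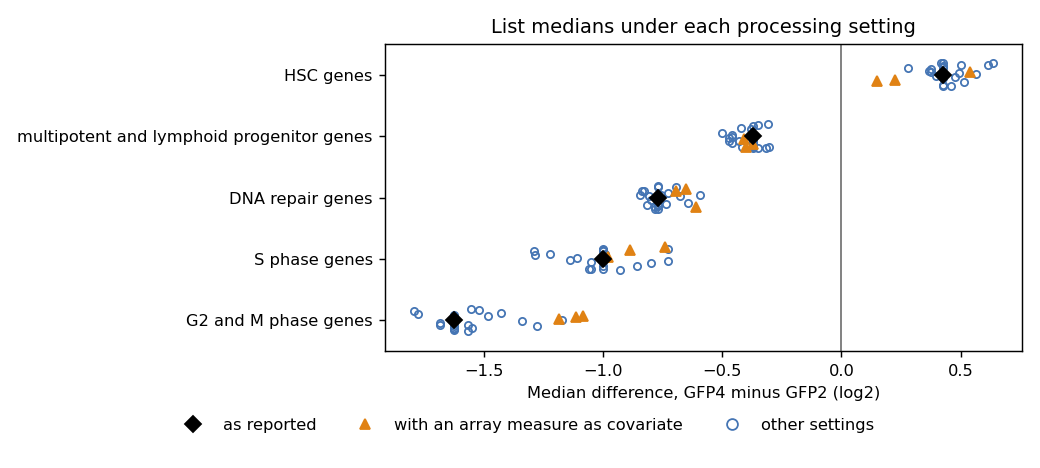
Median log2 difference, GFP4 minus GFP2 (horizontal axis), of 5 gene lists as reported (black diamond), with an array measure as covariate (orange triangles) and under the other settings tried on genes (open blue circles). Every G2 and M phase, S phase, DNA repair and progenitor median lies below 0 and every HSC median above it, and the covariate fits move G2 and M phase genes from -1.63 to between -1.18 and -1.08.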

How the data were processed

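RNA of sorted marrow cells was measured on 14 Affymetrix mouse arrays. The deposited values are log2 expression of 45101 probe sets, which the authors normalised with RMA (affy) after GCOS, per the submitters' processing notes; versions, a genome build and detection calls were not given in the sources used here. Of the probe sets, 34958 had 1 gene symbol in the platform annotation, 932 several and 9211 none. The brightest probe set per symbol by its mean over all arrays was kept, giving 18194 genes. Values of other probe sets are given above for some genes only.

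Group means of the 5 GFP levels were fitted over all 14 arrays with limma 3.58.1 in R 4.3.3 (lmFit, eBayes; two-sided), without covariates or a replicate block, and p-values were adjusted by Benjamini-Hochberg over all genes at 0.05. Tested on simulated data for GFP4 against GFP2 with 18194 genes, the fit recovered 40% of 100 genes changed by 1 and 92% of 100 changed by 2 on the log2 scale, with 7 false among 139 calls. The simulated noise was normal and independent between genes, with each gene's own spread and no array that stood apart. In the real arrays leaving out 1 array gave 0 to 122 calls, so these rates need not hold for them. Members and lists were chosen with earlier results of these data known. Named were up to 15 genes a direction past the threshold, without overlap, bright and not on an _x_at probe set. Genes of smallest p filled these up. Up to 4 more members per list and 4 genes of the second result were added. A set chosen by name held genes of stem cells, progenitors and the cell cycle, and Meg3. Ly6a was in that set but had no probe set with a single symbol, so it was left out. The other genes past the threshold, and further list members such as Cpa3, Ighm, Rbl1 and Dlk1, were chosen after their values were seen. The labels do not give replicate numbers as a pairing. By deviations from group means, same-numbered arrays of GFP4 and GFP2 correlated at 0.0825, -0.129 and 0.139. Between GFP2 and GFP1 they correlated at 0.284, -0.0309 and 0.576, and between GFP4 and GFP1 at -0.190, -0.137 and 0.0462. So few correlations cannot decide whether same-numbered arrays belong together. In replicates 1, 2 and 3 the HSC list averaged 8.54, 8.80 and 9.08 in GFP1 and 8.95, 9.28 and 9.59 in GFP2. In GFP4 it averaged 9.71, 9.63 and 9.77. Alternatives changed the probe set rule, scaling, dim genes, variance prior, array weights, covariates and arrays used.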

Additional observations from a re-analysis of the deposited data

Results flagged for a closer look

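Of 119 group values examined for 1 array far from the other 3 GFP4 arrays, 4 met the criterion (3.36%, where chance gives about 5%), and all 4 were GFP4 replicate 2. Dntt, the terminal transferase of lymphoid-primed progenitors, read 12.38 there, against 9.90 to 10.22 in the other GFP4 arrays, on the side of GFP2. Brca2 read 8.60, against 9.69 to 9.72, farther from GFP2 than the others. Cpa3, a mast cell protease, read 9.77, against 6.38 to 6.67. The glycolysis and hypoxia genes had a mean level of 9.35 in that array, against 9.57 to 9.59 in the others. Without GFP4 replicate 2, 122 genes passed the threshold, among them the 21 called with it. Because that array was picked by its values, this count is no independent support.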

How the results depend on the processing

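The 21 genes past the threshold became 48 with the mean of each gene's probe sets, 34 with every probe set by itself, 44 without dim genes, 2 with arrays centred on their medians, 1389 when arrays were weighted by quality, 7 in a fit of GFP4 and GFP2 alone, 33 without GFP4 arrays 1 and 2, and 1 with the interquartile range as a covariate. They were 0 with the Actb and Gapdh measures as covariates (583 at an unadjusted p under 0.05 in limma), and, in fits added after seeing the data, 0 with Actb alone (827) and 5 without GFP4 array 1 and GFP2 array 3. With the replicate number as a block, limma called 0 genes (2630 at an unadjusted p under 0.05). Only GFP4 had a replicate 4, so this block also took that array out of the comparison. The median difference over all genes was 0.0688 both with the block and without GFP4 replicate 4, and both fits called 0 genes. Whether same-numbered arrays belong together was not settled. Leaving out 1 array gave 0 to 122. Cyclic loess called 23 genes, 12 of them shared, of which 60.9% were higher in GFP4, against 28.6% as reported. The test of the difference between steps gave 1 gene with the replicate block and 0 to 2 genes without 1 array (1 without GFP0 replicate 1, 2 without GFP0 replicate 2). The HSC median was 0.15 with the Actb and Gapdh covariates. The DNA repair median was -0.59 with the mean of probe sets, -0.56 with every probe set, -0.61 with the interquartile range as a covariate and -0.64 without GFP4 arrays 1 and 2. Why these values moved was not tested. Over all alternatives the HSC and DNA repair medians kept their direction. So did those of G2 and M phase (-1.79 to -1.08), S phase (-1.29 to -0.73) and multipotent and lymphoid progenitors (-0.50 to -0.31). Of all 32 lists, 16 had a median of the other sign in at least 1 alternative. Among these were the TGF-beta and BMP, p53, interferon response, chemokine, and mast cell and basophil lists. Of the 19 lists whose median was larger than the scatter of their arrays within groups, 5 changed sign. Without detection calls, values of dim genes cannot be told from background.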

Other observations

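Lists without a pattern of their own are given as values. TGF-beta and BMP genes, 26 measured, had a median difference of 0.05, and so had 19 p53, sestrin and Foxo genes; limma called none, with 2 and 1 higher and none lower at an unadjusted p under 0.05. The 29 immediate early and heat shock genes, which respond to handling of cells, had a median of 0.19, with GFP4 replicate 1 at a mean level of 9.72 and the other GFP4 arrays at 8.81 to 9.05, against 8.64 to 8.98 in GFP2. There was 1 higher and 1 lower at that level and none past the threshold in limma. The 17 chemokine and trafficking receptors had a median of 0.23, with 1 higher and 2 lower at that level and none past the threshold in limma. Adhesion and niche genes, 29 measured, ranged from -0.95 for Selp, P-selectin, to 0.90 for Itgav, the integrin alpha V chain. The 25 efflux and detoxification genes had 2 members higher (5.25% of all genes) and none lower at an unadjusted p under 0.05 in limma and none past the threshold.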
